A study of Mus musculus with 12 samples.

Results

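The sphingosine-1-phosphate (S1P) receptor genes S1pr1, S1pr4 and S1pr5 and the surface receptor genes Cd69 and Cd44 were followed in natural killer (NK) cells with and without the microRNA miR-142. They were chosen by name from 19938 genes with a probe set of 1 symbol on the array, and all 5 were found, each with 1 probe set, and all 5 passed the filter on dim genes. CD44 is an adhesion receptor for hyaluronan rather than an egress receptor, so the set joins egress with tissue adhesion. NK cells were sorted as CD3- NK1.1+ cells from wild type and miR-142 KO mice on C57BL6, which were 7 to 10 weeks old with age and sex balanced by matching. There were 3 arrays in each of 4 groups, from the spleen and the bone marrow of either genotype. No group received a treatment. How the knockout was made and whether an array held the RNA of 1 mouse or of a pool are not given in the labels, which speak of biological replicates. The gate can also hold type 1 innate lymphoid cells, which carry NK1.1.

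S1P is a lipid made from sphingosine by sphingosine kinases, and it is abundant in blood and lymph but scarce inside tissues. Lymphocytes that carry S1P receptors follow this gradient out of an organ. S1PR1 is the main exit receptor of T and B cells, S1PR5 is the receptor NK cells are known to need for leaving the bone marrow and lymph nodes, and S1PR4 is found largely on blood cells. CD69 binds S1PR1 in the membrane and brings about its loss from the surface, so it acts against exit. CD44 holds cells on hyaluronan in the matrix.

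The mature sequences of the deleted microRNA are shown because they define what the knockout cells lack. Both arms lie on the plus strand of chromosome 11 of GRCm38.p6 (RefSeq), the 5p arm at chr11:87756867-87756887 and the 3p arm at chr11:87756903-87756925. The seed, bases 2 to 8, is in capitals, and the arms have different seeds.
mmu-miR-142a-5p: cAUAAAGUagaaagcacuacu
mmu-miR-142a-3p: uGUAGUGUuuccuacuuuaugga

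The 250 bases before the start site are shown for S1pr4, S1pr5 and Cd44, which fell over both organs in knockout cells, and for S1pr3, whose signal was higher on the knockout arrays. The RefSeq promoter table of GRCm38.p6 has entries for 3 of the 5 genes, and S1pr1 and Cd69 are not shown. Capitals mark 2 motifs on either strand, the KLF-type motif CACCC, which reads GGGTG from the other strand, and the SP1-type motif GGGCGG, which reads CCGCCC from the other strand, and no marked match overlaps another. The S1pr4 window lies at chr10:81500138-81500387 on the minus strand, the S1pr5 window at chr9:21248444-21248693 on the minus strand, the Cd44 window at chr2:102901666-102901915 on the minus strand and the S1pr3 window at chr13:51408368-51408617 on the plus strand.
S1pr4: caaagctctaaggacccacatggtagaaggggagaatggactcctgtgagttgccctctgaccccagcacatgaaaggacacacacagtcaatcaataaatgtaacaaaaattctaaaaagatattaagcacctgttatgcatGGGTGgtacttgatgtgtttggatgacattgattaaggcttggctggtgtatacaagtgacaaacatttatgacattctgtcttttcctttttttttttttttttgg
S1pr5: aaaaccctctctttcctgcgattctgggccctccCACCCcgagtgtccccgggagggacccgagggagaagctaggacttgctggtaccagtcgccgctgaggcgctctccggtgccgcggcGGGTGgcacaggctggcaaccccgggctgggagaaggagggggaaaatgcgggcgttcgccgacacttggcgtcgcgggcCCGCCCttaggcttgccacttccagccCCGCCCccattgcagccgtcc
Cd44: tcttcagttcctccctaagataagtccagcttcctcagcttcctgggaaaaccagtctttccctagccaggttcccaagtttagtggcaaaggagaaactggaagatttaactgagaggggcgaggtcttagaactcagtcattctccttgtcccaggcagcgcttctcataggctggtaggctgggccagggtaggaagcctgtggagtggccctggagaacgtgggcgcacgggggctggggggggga
S1pr3: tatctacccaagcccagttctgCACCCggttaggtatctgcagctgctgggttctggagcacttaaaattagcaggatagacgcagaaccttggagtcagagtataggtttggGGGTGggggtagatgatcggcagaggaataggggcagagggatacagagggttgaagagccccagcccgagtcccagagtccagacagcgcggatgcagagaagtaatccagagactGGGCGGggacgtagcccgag

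The S1pr5 window was rich in G and C (69.2%) and that of S1pr4 poor (38.8%), beside a median of 52.4% over 32851 promoters. The S1pr5 window held 2 CACCC and 2 GGGCGG matches, the S1pr4 window 1 CACCC match and the Cd44 window neither motif. The S1pr3 window held 2 CACCC matches and 1 GGGCGG match. CACCC was found in 52% of all promoters of that length and GGGCGG in 32.7%. The T-box-type TCACAC, the FOXO-type GTAAACA and the AP-1-type TGANTCA were found in 12.3%, 3.17% and 6.75% of all promoters, and these letters are not in the 4 windows shown.

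The arrays carried the deletion their labels name. The Mir142 signal was 7.18 ± 0.41 in wild type and 4.38 ± 0.29 in knockout spleen and 7.50 ± 0.65 and 4.55 ± 0.25 in bone marrow (log2 signal, mean ± SD, n = 3 arrays). All 11 NK cell markers were above the filter, with a list mean of 11.28 to 11.55 in the 4 groups, against 4.80 to 4.86 for the B cell list. The even mean hides single genes, as 2 of the 11 rose and 1 fell over both organs. The 1 that fell was Itga2, whose genotypes did not overlap in either organ. Its bone marrow difference was -0.76 ± 0.12 and its spleen difference -0.44 ± 0.11 (adjusted p = 0.00309 and 0.0312 in limma). Gzma and Il2rb were those that rose, at 0.23 and 0.22. The part of type 1 innate lymphoid cells was not tested. Genes of other cell types moved between groups. The summed linear signal of the 8 T cell genes was 2192 to 2420 in wild type bone marrow and 812 to 1286 in the other groups, and Cd4 and Cd8b1 were below the filter. The 11 granulocyte genes summed to 4630 to 5486 in wild type bone marrow and 536 to 3090 elsewhere, with Ly6g, Ltf and Mmp8 below the filter. The 12 dendritic cell and monocyte genes summed to 3739 to 4938 in knockout and 1917 to 2517 in wild type arrays, with 6 of them below the filter. Bright genes weigh most in a linear sum, and Itgax read 9.90 to 10.44 in wild type and 11.36 to 11.87 in knockout arrays. Of the 6 tested, 4 rose and 1 fell over both organs, beside 8.81% and 10.3% of all genes. Itgax rose by 1.41 ± 0.078, and Ms4a6c was the 1 that fell, by 0.84 ± 0.12. The part of these cell types in the results below was not tested. The array numbers of the labels form 2 runs, and the second consisted of 2 wild type arrays from bone marrow (2 and 3), the wild type spleen array 3 and the knockout spleen arrays 1 and 2. Each difference given below within a run therefore rests on 1 array in 1 of its groups and has no test.

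Of the 5 genes, 3 fell in knockout NK cells of both organs and 1 more in spleen, and the losses were largest for S1pr1 and Cd44. For S1pr1 the fold was 3.87 in spleen against 6.54 in bone marrow, and for Cd44 it was 2.71 against 3.46. S1pr4 fell about 1.5-fold in each organ. S1pr5 was 1.43-fold lower in spleen, where it passed the test, and 1.33-fold lower in bone marrow, where it did not. Cd69 did not pass in either. Among all 11963 genes tested, 9.11% were called in spleen (3.63% lower, 5.48% higher) and 8.65% in bone marrow (4.73% lower, 3.92% higher) (limma, Benjamini-Hochberg adjusted p under 0.05). The knockout arrays lay wholly below the wild type arrays for S1pr1, S1pr4, S1pr5 and Cd44 in both organs, as they did for 14% of all genes in spleen and 17.8% in bone marrow. In either direction 28% of genes in spleen and 34.2% in bone marrow had arrays that did not overlap. In bulk RNA of sorted cells, fewer cells with a transcript and less transcript per cell cannot be told apart.

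**Figure D1:**
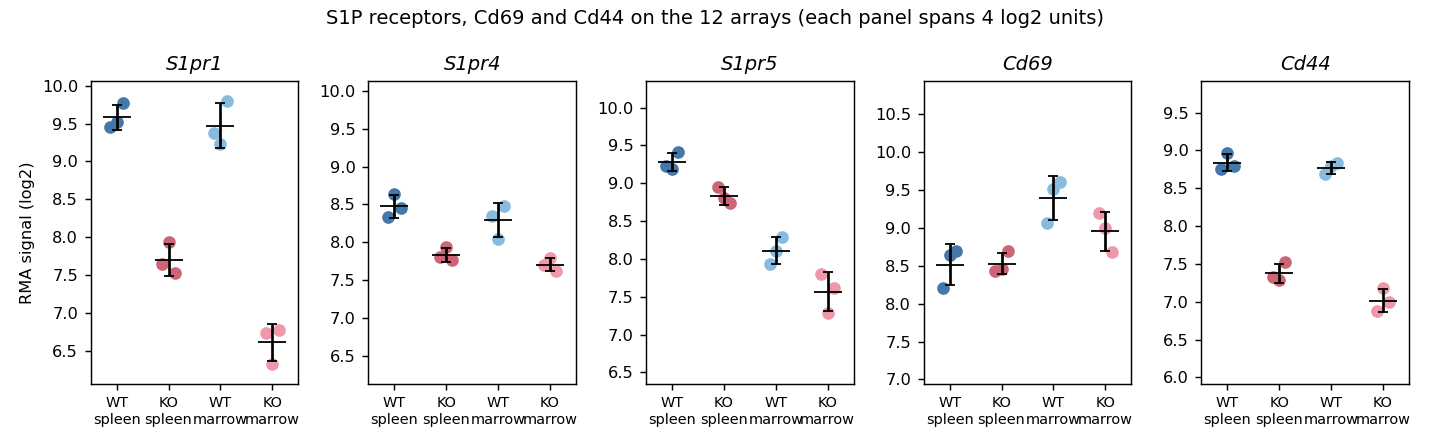
The RMA signal (log2) of S1pr1, S1pr4, S1pr5, Cd69 and Cd44 on each of the 12 arrays, as points by genotype and organ (WT, wild type; KO, knockout), with the mean as a horizontal bar and the SD as an error bar (n = 3). S1pr1 and Cd44 show the widest gap between genotypes, S1pr5 shows a gap between organs in both genotypes and Cd69 in wild type, and each panel has its own range of the same height.

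S1pr1, the exit receptor that S1P activates on most lymphocytes, was high in wild type cells of both organs. The 3 wild type spleen arrays read 9.46, 9.52 and 9.77 (log2 signal) and the 3 wild type bone marrow arrays 9.37, 9.24 and 9.80. The knockout arrays read 7.64, 7.94 and 7.53 in spleen, whereas those of bone marrow read 6.73, 6.32 and 6.78. The wild type arrays of the organs overlapped, every knockout array was below every wild type array, and the knockout bone marrow arrays were the lowest. In spleen S1pr1 fell by 1.95 ± 0.17 (log2 difference ± SE), and in bone marrow it fell by 2.71 ± 0.19 (limma, adjusted p = 2.78e-05 and 6.52e-06, n = 3 arrays a group). It ranked 34 and 10 among all genes by p in these comparisons. Within the first run the spleen difference was -1.96 and within the second -1.98, and both calls stood with each of the 12 arrays left out.

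S1pr4, which couples to Gi like S1PR1 and is known mainly from blood cells, changed less. The wild type spleen arrays read 8.33, 8.64 and 8.45 and the knockout spleen arrays 7.81, 7.94 and 7.76. In bone marrow the wild type arrays read 8.34, 8.04 and 8.48 and the knockout arrays 7.71, 7.79 and 7.62. The organs gave nearly the same 2 levels, with the wild type bone marrow array at 8.04 closest to the knockout arrays. In spleen S1pr4 fell by 0.64 ± 0.13 (limma, adjusted p = 0.0110), and in bone marrow it fell by 0.59 ± 0.15 (adjusted p = 0.0325). The spleen call was lost without knockout spleen 3 (-0.56, adjusted p = 0.0996) or wild type spleen 3 (-0.66, 0.0653). In bone marrow the call did not stand when knockout array 1 (-0.59, 0.0590), 2 (-0.63, 0.0541) or 3 (-0.54, 0.0881) of that organ was left out, nor its wild type array 1 (-0.52, 0.236) or 3 (-0.51, 0.0592), nor wild type spleen 3 (-0.57, 0.0660). It was also lost with a second quantile normalization (-0.48, 0.0597). Over both organs S1pr4 fell by 0.61 ± 0.093 (adjusted p = 0.000678), a call that stood without any 1 array, where 19.1% of all genes were called, 10.3% lower and 8.81% higher.

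S1pr5, the receptor that guides NK cells out of the bone marrow, had its highest level in wild type spleen. The wild type spleen arrays read 9.23, 9.18 and 9.41 and the knockout spleen arrays 8.95, 8.80 and 8.74. The bone marrow arrays read 7.94, 8.10 and 8.29 in wild type and 7.80, 7.29 and 7.61 in knockout. The 4 groups did not overlap, with both spleen groups above both marrow groups and wild type above knockout in each organ, though the highest knockout bone marrow array was only just below the lowest wild type one. S1pr5 fell by 0.51 ± 0.13 in spleen (limma, adjusted p = 0.0311), and in bone marrow the difference was -0.41 ± 0.15 (adjusted p = 0.110, 95% interval -0.73 to -0.09). The spleen call was lost without any 1 of the 6 spleen arrays or without wild type bone marrow 1, with differences of -0.47 to -0.55 and adjusted p of 0.0504 to 0.141. Without the run in the model it was lost in spleen (-0.44, 0.0613) and gained in bone marrow (-0.54, 0.0206), and without knockout bone marrow 1 it was also gained there (-0.52, 0.0461). Over both organs S1pr5 fell by 0.46 ± 0.091 (adjusted p = 0.0039), and that call stood without any 1 array.

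The other S1P receptors with tested probe sets did not follow these 3. S1pr3, which couples to Gq and G12/13 as well as Gi, read 5.05, 4.64 and 4.51 in wild type spleen and 7.32, 6.88 and 7.54 in knockout spleen. It read 5.0, 4.99 and 5.37 in wild type bone marrow and 7.20, 7.43 and 7.76 in knockout bone marrow. All 6 wild type values were under the filter value of 5.49, near the lower quartile of the arrays (4.55 to 4.72), and all 6 knockout values were above it. S1pr3 passed the filter through its knockout arrays, so its difference is given as a description: 2.58 ± 0.20 in spleen and 2.21 ± 0.23 in bone marrow (log2 difference ± SE). S1pr2, which acts against migration, had group means of 6.58 to 6.83. Its differences were 0.02 ± 0.10 in spleen and 0.16 ± 0.11 in bone marrow (limma, adjusted p = 0.933 and 0.411, 95% intervals -0.20 to 0.24 and -0.08 to 0.40).

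Cd69, the antagonist of S1PR1 at the membrane, did not differ by genotype beyond the spread between arrays. The spleen arrays read 8.20, 8.65 and 8.70 in wild type and 8.43, 8.46 and 8.69 in knockout. The bone marrow arrays read 9.07, 9.51 and 9.60 in wild type and 9.19, 9.0 and 8.68 in knockout. The genotypes overlapped in both organs. The difference was -0.05 ± 0.18 in spleen (95% interval -0.44 to 0.35) and -0.32 ± 0.20 in bone marrow (-0.77 to 0.12), with adjusted p of 0.927 and 0.357 in limma. These intervals leave room for a bone marrow loss as large as that of S1pr4. In spleen the sign differed between runs, with 0.27 within the first and -0.25 within the second.

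Cd44, the hyaluronan receptor, varied little between arrays of a group. The wild type arrays read 8.76, 8.97 and 8.79 in spleen, whereas those of bone marrow read 8.68, 8.79 and 8.83. The knockout arrays read 7.33, 7.28 and 7.52 in spleen, whereas those of bone marrow read 6.88, 7.18 and 6.99. The wild type organs overlapped, and both knockout groups lay more than a log2 unit below them. In spleen Cd44 fell by 1.44 ± 0.12, and in bone marrow it fell by 1.79 ± 0.13 (limma, adjusted p = 1.92e-05 and 8.28e-06, n = 3 arrays a group). The difference was -1.34 within the first run and -1.48 within the second in spleen, and -1.67 within the first in bone marrow. Both calls stood without any 1 array.

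**Figure D2:**
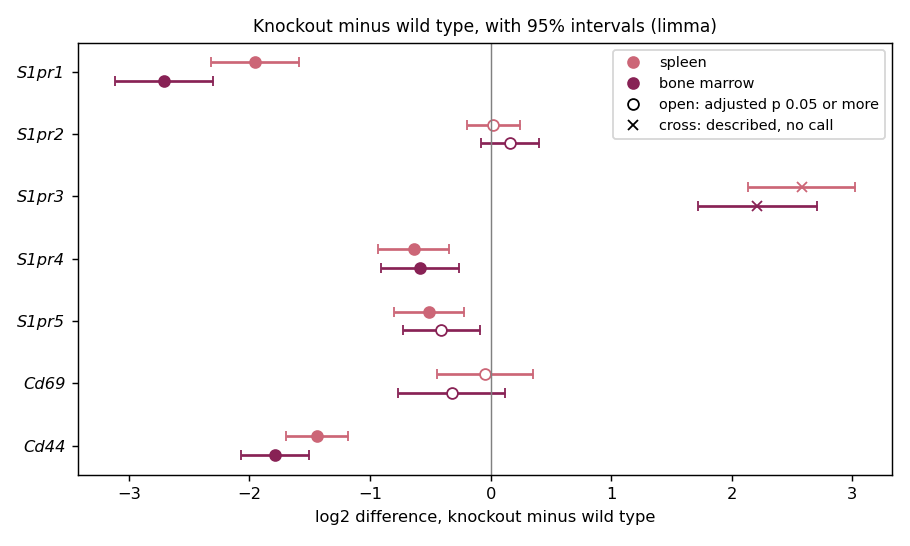
The log2 difference of knockout minus wild type with its 95% interval from limma for the 5 S1P receptor genes, Cd69 and Cd44, in spleen and bone marrow. Filled points have an adjusted p under 0.05, open points do not, and crosses mark S1pr3, which is described without a call: S1pr1 and Cd44 lie furthest below 0, S1pr3 lies above 2 in both organs, and the Cd69 intervals include 0.

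The size of these changes was set beside all genes. The median difference over the 11963 genes was -0.01 in both knockout comparisons. S1pr1 and Cd44 stood in the sparse left tail of both distributions, S1pr4 and S1pr5 in the shoulder, where many other genes lie, and Cd69 and S1pr2 in the body.

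**Figure D3:**
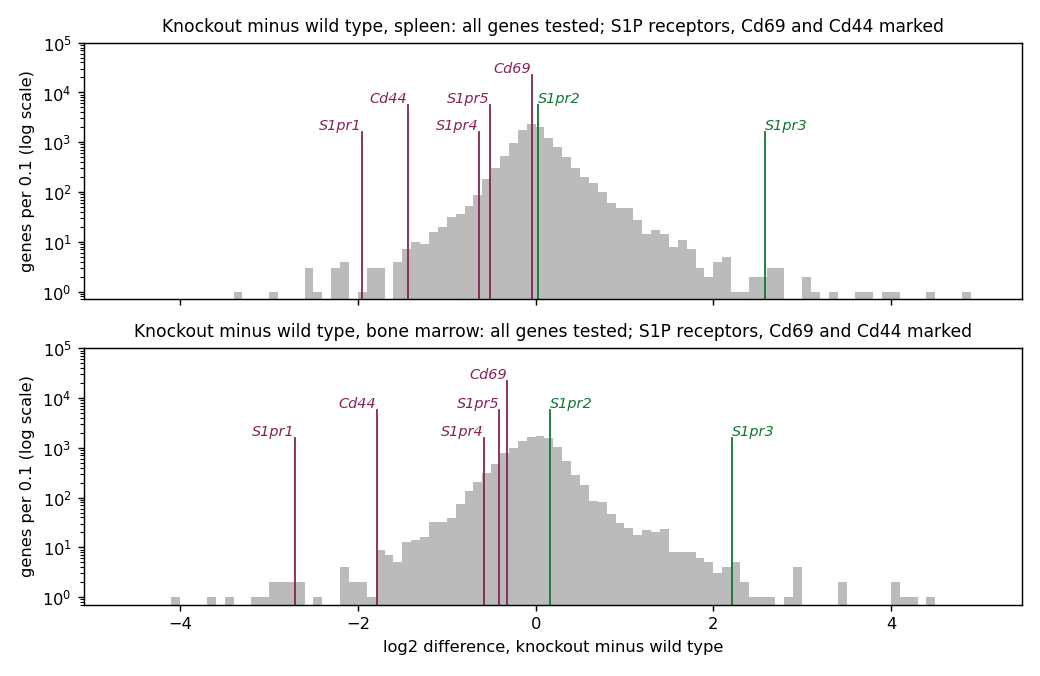
The number of tested genes (log scale) by log2 difference, knockout minus wild type, in bins of 0.1, for spleen above and bone marrow below, with vertical lines for the S1P receptor genes, Cd69 and Cd44. S1pr1 at -1.95 and -2.71 and Cd44 at -1.44 and -1.79 lie in the left tail, and S1pr3 at 2.58 and 2.21 in the right tail.

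Whether the knockout effect differed between organs was tested as the interaction. No gene of the set passed, and 0.00836% of all genes did, 1 of 11963, with 1092 at an unadjusted p under 0.05. For S1pr1 the bone marrow effect was lower than the spleen effect by -0.76 ± 0.27 (95% interval -1.34 to -0.18), with an unadjusted p of 0.015 and an adjusted p of 0.423 in limma, so the larger loss in bone marrow did not hold after adjustment over all genes. For Cd44 the interaction was -0.35 ± 0.19 (-0.76 to 0.06, adjusted p = 0.602). The interactions of S1pr4, S1pr5 and Cd69 were 0.05 ± 0.21, 0.10 ± 0.21 and -0.28 ± 0.29. The intervals of S1pr4 (-0.41 to 0.52) and S1pr5 (-0.35 to 0.56) leave room for an unequal effect in the organs.

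In wild type cells S1pr5 and Cd69 passed the test between organs. There S1pr5 was 2.35-fold lower in bone marrow than in spleen, a difference of -1.23 ± 0.13 (limma, adjusted p = 0.000918), and Cd69 was 1.77-fold higher, a difference of 0.82 ± 0.18 (adjusted p = 0.0260). Of all genes 5.37% were called between the wild type organs, 1.04% lower and 4.34% higher in bone marrow. The arrays did not overlap for S1pr5 or for Cd69, as for 15.2% of genes lower and 16.4% of genes higher in bone marrow, 31.6% in all. S1pr1, S1pr4 and Cd44 did not pass, with differences of -0.19 ± 0.17, -0.18 ± 0.13 and -0.05 ± 0.12. The Cd69 call did not stand when wild type spleen 1 (0.70, adjusted p = 0.0743) or 3 (0.89, 0.0997) was left out, nor any of the wild type bone marrow arrays 1 (1.03, 0.0600), 2 (0.79, 0.0633) and 3 (0.75, 0.0580). Cd69 moved here together with genes of other cell types, which also carry it: 7 of 8 tested granulocyte genes and 3 of 6 T cell genes were higher in wild type bone marrow, among them Cd3d (1.88 ± 0.23) and Cd3g (1.95 ± 0.22), and their part in the difference was not tested.

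In knockout cells S1pr5 kept a gap of the same sign between the organs, -1.13 ± 0.15 (limma, adjusted p = 0.00561), 2.19-fold lower in bone marrow, where 0.318% of all genes were called and 0.226% were called lower. That call was lost without knockout spleen 3 (-1.08, adjusted p = 0.147). S1pr1 was lower in every knockout bone marrow array than in any knockout spleen array, a difference of -0.94 ± 0.19 that missed the threshold (adjusted p = 0.0675). It passed without the run in the model (-1.10, 0.00926) and without wild type bone marrow 3 (-0.99, 0.0494). Cd44 was also lower without overlap, by a difference of -0.40 ± 0.13 (adjusted p = 0.340), as were 8.65% of all genes. For Cd69 the knockout organs overlapped, with a difference of 0.54 ± 0.20 (adjusted p = 0.427). The median difference between the knockout organs was 0.13 for the 8 granulocyte genes and -0.14 for the 6 T cell genes, beside -0.01 over all genes. The wild type and knockout comparisons of organ have no group in common, but they are not independent. Both come from the same fit, which shares the estimates of the run and of the spread between arrays. Leaving out wild type bone marrow 3 thus moved the knockout difference of S1pr1 from -0.94 to -0.99. The difference between the wild type and knockout comparisons is the interaction given above.

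**Figure D4:**
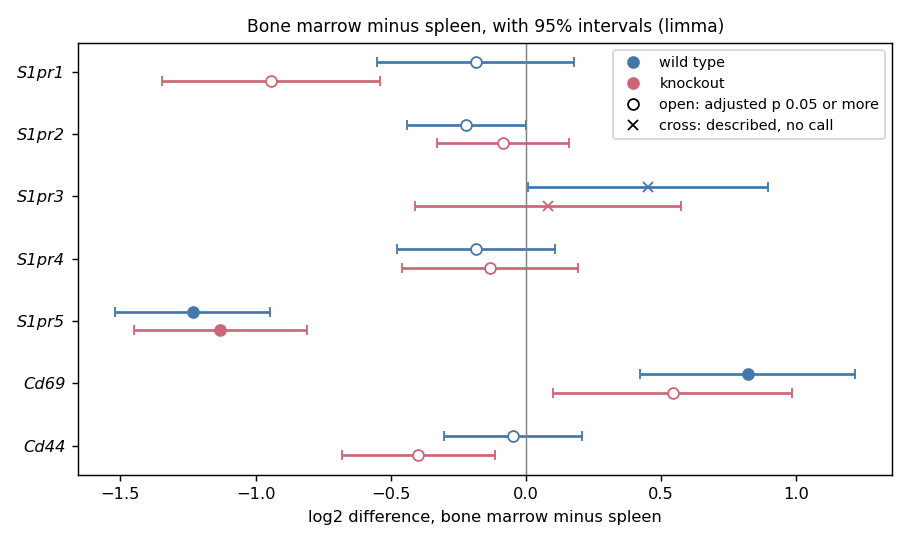
The log2 difference of bone marrow minus spleen with its 95% interval from limma, in wild type and knockout NK cells, for the 5 S1P receptor genes, Cd69 and Cd44. S1pr5 lies near -1.2 in both genotypes and is filled in both, Cd69 is filled in wild type, and the S1pr1 interval is below 0 in knockout although its adjusted p is above 0.05 (open point). Crosses mark S1pr3, which is described without a call.

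Of 16 listed genes for S1P synthesis, breakdown and transport 10 were tested, and 1 rose over both organs (limma, adjusted p under 0.05), where 19.1% of all genes were called and 8.81% called higher, with a list median of -0.02 beside -0.01 over all genes. That gene was Asah1, the acid ceramidase that frees sphingosine, with a rise of 0.32 ± 0.078 (adjusted p = 0.0126), lost without wild type bone marrow 1 (0.29, 0.0582). The sphingosine kinase genes Sphk1 and Sphk2, the lyase gene Sgpl1 and the S1P exporter gene Spns2, named after their values were seen, had differences of 0.04 ± 0.080, -0.01 ± 0.086, -0.21 ± 0.074 and -0.07 ± 0.10, and none passed. Of 11 tested genes of ceramide and sphingolipid synthesis 1 rose and 3 fell, beside 8.81% and 10.3% of all genes, with a median of -0.04. Cers6 (0.50) and Cers4 (-0.59), both ceramide synthases, moved in opposite directions, and Sptlc2, of the first enzyme of the pathway, fell by 0.41. Ugcg, the glucosylceramide synthase, was at -0.29 and lost its call without any 1 array other than wild type spleen 3, knockout spleen 1 or knockout bone marrow 1 (-0.30 to -0.24, adjusted p = 0.0696 to 0.135).

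Among G proteins and effectors that act below the S1P receptors, 2 rose and 5 fell of 17 tested over both organs, beside 8.81% and 10.3% of all genes, with a median of -0.12. Pik3r5, the adaptor of the PI3 kinase that G protein subunits switch on, fell by 1.05 ± 0.081 (limma, adjusted p = 3.4e-06), with 8.95, 9.14 and 9.22 in wild type and 8.24, 8.22 and 8.10 in knockout spleen. Its bone marrow arrays read 9.09, 9.11 and 9.36 in wild type and 8.12, 7.79 and 7.91 in knockout, so the genotypes did not overlap. Stk4, the kinase MST1, which lymphocytes need for migration, fell by 0.47. Gnaq and Gna12, the alpha subunits of Gq and G12, rose by 0.82 ± 0.13 and 0.50. The bone marrow call of Gnaq (0.76 ± 0.20, limma, adjusted p = 0.0412) held in 2 of 12 omissions of an array. The spleen call of Gna12 (0.62 ± 0.17, 0.0376) held in 5 of 12, and in bone marrow Gna12 did not pass (0.39 ± 0.18, 0.222). Coro1a, Dock2 and Gnai3 made up the rest of the falls, at -0.32, -0.26 and -0.22, named after their values were seen. Dock2 lost its call without wild type spleen 1 (-0.23, adjusted p = 0.0709) or knockout spleen 2 (-0.25, 0.0533), and Gnai3 without any 1 array other than knockout spleen 3 or knockout bone marrow 1 (-0.24 to -0.20, 0.0533 to 0.109).

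Genes that switch receptors off went both ways: of 9 tested, 2 rose and 4 fell over both organs, beside 8.81% and 10.3% of all genes, with a median of -0.12. Grk5, a kinase that marks active receptors for arrestin, fell by 1.11 ± 0.088 (limma, adjusted p = 4.4e-06), and Grk6 by 0.53. Rgs16 and Rgs1, which shorten G protein signals of migration receptors, rose by 1.06 ± 0.18 and 0.73 ± 0.12. Grk5 stood between 7.92 and 8.31 on the wild type spleen arrays and between 6.79 and 7.19 on the knockout ones, and its calls in each organ held without any 1 array. Rgs16 lay at 6.95 to 7.47 in wild type spleen and 8.10 to 8.35 in knockout spleen. In bone marrow it lay at 7.77 to 8.31 in wild type and 8.54 to 9.74 in knockout. The bone marrow call of Rgs16 (1.02 ± 0.29, limma, adjusted p = 0.0487) held in 1 of 12 omissions of an array, and its spleen call in 8. Rgs1 did not pass in bone marrow (0.66 ± 0.19, adjusted p = 0.0521), where its genotypes overlapped.

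Of 17 tested transcription factors known to act on S1P receptor genes or Cd69, 1 rose and 6 fell over both organs, beside 8.81% and 10.3% of all genes, with a median of -0.16. Klf2, which drives S1pr1 in lymphocytes, read 9.0, 9.03 and 9.16 in wild type spleen and 8.03, 8.30 and 8.57 in knockout spleen. In bone marrow it read 8.74, 8.84 and 8.95 in wild type and 7.76, 7.58 and 7.70 in knockout. The genotypes did not overlap in either organ, and the knockout bone marrow arrays were the lowest of all, as they were for S1pr1. Klf2 fell by 0.97 ± 0.095 over both organs (limma, adjusted p = 2.42e-05). The size in spleen was uneven, with -0.45 within the first run and -1.0 within the second, and that call was lost without wild type spleen 3 (-0.64, adjusted p = 0.0679).

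Zeb2, a factor of late NK cell maturation known to favour S1pr5, fell by 0.99 ± 0.16 in spleen (limma, adjusted p = 0.00276) and stood at -0.45 ± 0.18 in bone marrow (adjusted p = 0.160), where it passed with the run as a random block (-0.50, 0.0367) or with the replicate numbers in place of the run (-0.48, 0.0406). Between wild type organs Zeb2 was lower in bone marrow by a difference of -1.40 ± 0.16 (adjusted p = 0.00115), the direction of S1pr5 there. Tbx21, which encodes T-bet, the factor known to switch on S1pr5 in NK cells, was named after its values were seen. It was at -0.05 ± 0.15 in spleen and -0.12 ± 0.17 in bone marrow by genotype, and at -0.35 ± 0.15 between wild type organs, and none of these passed (adjusted p = 0.904, 0.709 and 0.196). Foxo1, which acts above Klf2 and was also named after its values were seen, was at -0.31 ± 0.075 over both organs (adjusted p = 0.0130). In neither organ alone did it pass. The 1 that rose was Egr1, a factor induced by stimulation, at 0.53 ± 0.14 (adjusted p = 0.0188), named after its values were seen. It was at 0.89 ± 0.20 in spleen (adjusted p = 0.0154) and 0.17 ± 0.22 in bone marrow (0.684). Nr4a1 and Nr4a2, also induced by stimulation, were at -1.24 and -1.03 over both organs, with a wide spread between arrays of a group. In spleen neither passed (-0.58 ± 0.39 and -0.46 ± 0.42, adjusted p = 0.444 and 0.594). In bone marrow they were at -1.89 ± 0.44 and -1.60 ± 0.47 (0.0207 and 0.0548). Nr4a2 lost its call over both organs without wild type spleen 2 or 3, knockout spleen 1 or 2, or wild type bone marrow 1 or 2 (-1.06 to -0.93, adjusted p = 0.0543 to 0.103).

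Among the receptors that steer NK cells between organs 3 rose and 8 fell of 14 tested over both organs, where 8.81% of all genes rose and 10.3% fell, with a median of -0.49 beside -0.01 over all genes. In spleen alone 10 were called and in bone marrow 6, beside 9.11% and 8.65% of all genes. Cxcr3, the receptor for interferon-induced chemokines, fell by 2.55 and Itga4, the alpha-4 integrin chain that binds VCAM-1, by 1.00. Gpr183, an oxysterol receptor, fell by 0.96, and Cxcr6, a marker of tissue-resident lymphocytes that binds CXCL16, rose by 1.75 (limma, adjusted p = 9.21e-07, 2.17e-05, 0.000225 and 1.1e-06). Cxcr3 and Cxcr6 separated the genotypes on every array of each organ, with Cxcr6 at 7.23 to 7.51 in wild type spleen and 8.70 to 9.18 in knockout spleen.

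Cxcr4 and 3 further receptors of this list bear on exit from bone marrow and were named after their values were seen. CXCR4 holds NK cells in the bone marrow through CXCL12, and its gene fell by 1.04 ± 0.20 in spleen (limma, adjusted p = 0.00712), with -0.53 ± 0.22 in bone marrow (adjusted p = 0.179). The mean of Cxcr4 was 9.90 ± 0.30 in wild type spleen and 10.62 ± 0.35 in wild type bone marrow (SD, n = 3), a difference of 0.63 ± 0.20 that did not pass (adjusted p = 0.095). Ccr2, known to act in exit of monocytes from marrow, fell by 1.33 ± 0.12 in spleen (adjusted p = 4.58e-05) and was at -0.15 ± 0.14 in bone marrow (adjusted p = 0.534). Cx3cr1, the fractalkine receptor of mature NK cells, fell by 1.06 ± 0.21 in spleen (adjusted p = 0.00731), a call lost without wild type spleen 3 (-0.94, 0.0804), and was at -0.72 ± 0.23 in bone marrow (adjusted p = 0.0762). Itgb1, the beta-1 integrin chain, rose by 0.54 ± 0.092 in spleen and 0.84 ± 0.10 in bone marrow (adjusted p = 0.00317 and 0.000388), the opposite of Itga4 and Cd44.

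Of 10 tested genes of hyaluronan synthesis and CD44 partners, 2 rose and 2 fell over both organs, beside 8.81% and 10.3% of all genes, with a median of 0.07, and the synthase genes Has1, Has2 and Has3 were below the filter. Ezr and Msn, whose products ezrin and moesin tie CD44 to actin, fell by 0.34 and 0.37 (limma, adjusted p = 0.00367 and 0.00386). Timp2, an inhibitor of metalloproteinases, rose by 1.64, and Cd74, a partner of CD44 in MIF signalling that is also part of the MHC class II machinery, by 1.38. Over both organs Cd74 moved with the class II genes H2-Ab1 (1.12 ± 0.14) and H2-Aa (1.30 ± 0.23), which are in the dendritic cell list. Ms4a6c of that list went the other way (-0.84 ± 0.12). In bone marrow alone Cd74 (1.07 ± 0.42, limma, adjusted p = 0.148), H2-Ab1 (0.59 ± 0.22, 0.126) and H2-Aa (0.59 ± 0.36, 0.346) did not pass. The part of dendritic cells was not tested. Of 7 tested CD69 partners 1 passed over both organs, where 19.1% of all genes did: Myl12b, a myosin light chain, at -0.40. In spleen 3 of the 7 were called, 2 higher and 1 lower, beside 9.11% of all genes, and in bone marrow 2, both lower, beside 8.65%. The single-organ calls were those of S100a8 and Slc7a5, which had opposite signs in the organs, and of Myl12b in spleen. S100a8, a granulocyte gene as well as a CD69 ligand gene, was at 1.81 ± 0.37 in spleen and -1.74 ± 0.41 in bone marrow, and Slc7a5, of the amino acid transporter that CD69 binds, at 1.14 ± 0.17 and -0.77 ± 0.19. The S100a8 calls were lost without wild type spleen 3 (1.38, adjusted p = 0.122 in spleen and -1.52, 0.0546 in bone marrow), without knockout spleen 3 in spleen (1.77, 0.0695) and without knockout bone marrow 2 in bone marrow (-1.40, 0.0664). The bone marrow call of Slc7a5 was lost without knockout bone marrow 2 or 3, knockout spleen 3 or wild type bone marrow 1 or 2 (-0.77 to -0.73, 0.0579 to 0.174), and the spleen call of Myl12b without wild type spleen 3 (-0.48, 0.0527). Without the run in the limma model, the bone marrow calls of Slc7a5 (-0.38, adjusted p = 0.327) and S100a8 (-1.20, 0.0859) were also lost. With the run as a random block, Slc7a5 was at -0.27 (0.497) in bone marrow and 0.89 (0.0526) in spleen. S100a8 was then at -1.04 (0.122) in bone marrow and 1.46 (0.0607) in spleen. S100a8 and Slc7a5 were named after their values were seen, and the part of granulocytes, whose summed signals stand above, was not tested.

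**Figure D5:**
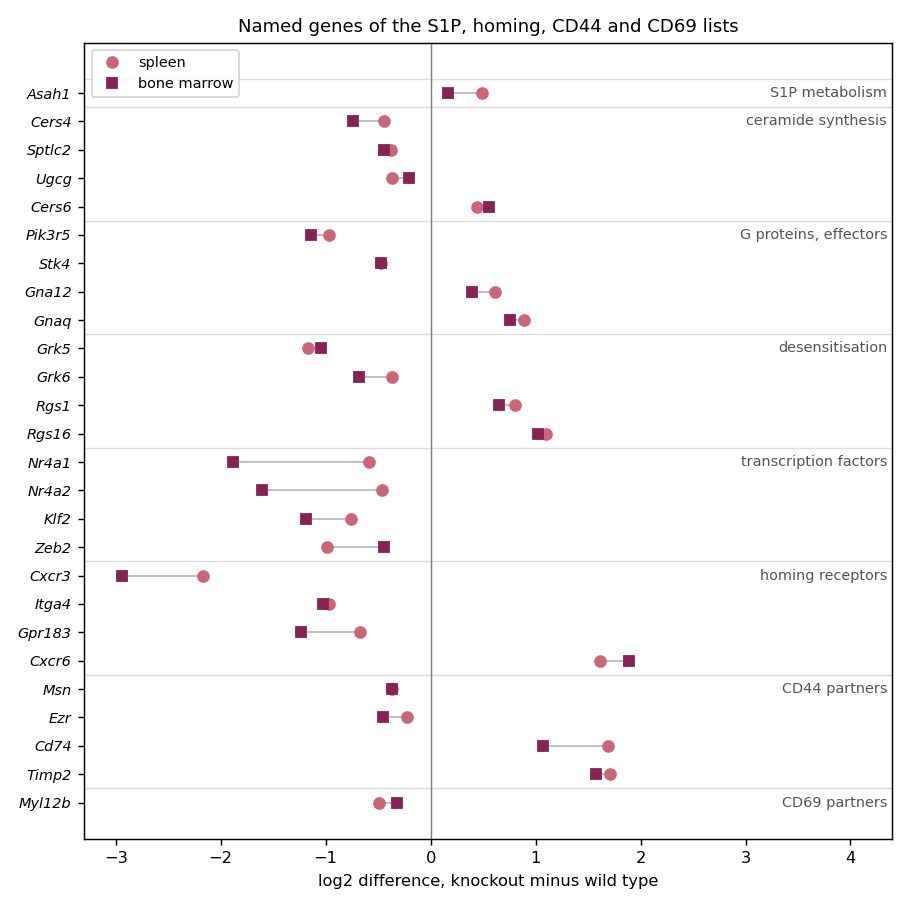
The log2 difference of knockout minus wild type in spleen (circles) and bone marrow (squares) for the genes of the S1P, homing, CD44 and CD69 lists that were called over both organs, up to 4 a list, grouped by list, without S1pr3. Cxcr3 lies furthest to the left and Cxcr6 furthest to the right in bone marrow, and each gene shown has the same sign in both organs, which choosing genes called over both organs favours.

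Some genes followed the 5 across the arrays closely. The likeness is Pearson's r over the 12 arrays, which share the 4 groups, so it is a description without a test. S1pr1 was followed most closely by Dgka (0.978), Pik3r5 (0.976) and Cd247 (0.976), and Cd44 by Sidt1 (0.996), Dgka (0.989) and Arhgap26 (0.988). Dgka, a diacylglycerol kinase, had means of 9.32 in wild type spleen, 7.04 in knockout spleen, 9.34 in wild type and 5.91 in knockout bone marrow, the order of S1pr1 and Cd44 by organ in knockout cells. In spleen Sidt1 fell by 2.43 ± 0.12, and in bone marrow it fell by 2.80 ± 0.14 (limma, adjusted p = 5.41e-07 and 4.22e-07).

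S1pr4 was followed by Prr13 (0.951), Ptbp3 (0.951) and Gprin3 (0.947). S1pr5 was followed by Ets1 (0.962), Plek (0.960) and Itgam (0.959), of which Itgam encodes CD11b, the marker of mature NK cells. Itgam was lower in bone marrow by a difference of -1.07 ± 0.17 in wild type and -1.42 ± 0.18 in knockout cells, as S1pr5 was (limma, adjusted p = 0.00532 and 0.00561). These calls of Itgam were lost without wild type bone marrow 1 (-1.10, 0.0522) or wild type spleen 3 (-0.99, 0.0580), and without knockout spleen 3 (-1.35, 0.147). Cd69 was followed by Rpp14 (0.946), Ap1ar (0.920) and Mrpl11 (0.904).

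Among the 5 genes, S1pr1 and Cd44 were the most alike over the 12 arrays (r = 0.961), then S1pr4 and Cd44 (0.921) and S1pr1 and S1pr4 (0.919). S1pr5 and Cd69 ran against each other (-0.572). Once each group's mean was taken off, S1pr1 and Cd44 were at -0.418, so their likeness lay between the groups and not within them, whereas S1pr1 and S1pr5 were at 0.703 within groups. S1pr5 and Cd69 were at 0.353 within groups, so they ran against each other between the groups only.

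The genes next to the 5 in genome order were read from the RefSeq table. Dph5, beside S1pr1, was at -0.36 ± 0.074 over both organs (limma, adjusted p = 0.00455). Gna15, beside S1pr4, was at -0.45 ± 0.12 over both (adjusted p = 0.0187), which did not pass when knockout spleen 1 (-0.37, 0.0533) or wild type bone marrow 1 (-0.46, 0.0537) was left out. Ncln beside S1pr4, Keap1 and Atg4d beside S1pr5, Clec2d beside Cd69 and Pdhx beside Cd44 were not called in either organ or over both. Olfm3, Clec2m and Slc1a2 were not tested.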

How the data were processed

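Trizol RNA of the sorted cells went through NuGEN Ovation PicoSL amplification onto Affymetrix arrays, per the labels' protocols. Each deposited value is the log2 signal of a probe set on an array, made by the authors with Affymetrix Expression Console and RMA, per the submitters' processing notes. Its version, annotation and genome build: not given in the sources used here. Array medians were 5.75 to 5.87, and arrays of 1 group correlated at 0.984 to 0.992 over genes. The precision is limited by how many arrays there are, as signals of arrays have no depth in reads.

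Of 35556 probe sets, 21789 had 1 symbol in the platform annotation, 1621 several and 12146 none, and the probe set with the highest mean was kept for each of 19938 genes. Genes above the 40th percentile of means (5.49) were tested, which left 11963. A mean for each of the 4 groups and the run of array numbers (7 and 5 arrays) were fitted in limma 3.58.1 (R 4.3.3) over all 12 arrays, with two-sided p-values adjusted by Benjamini-Hochberg over all genes tested. The first run held every array of knockout bone marrow. The run itself passed for 0 genes in limma, with 546 at an unadjusted p under 0.05. The labels speak of biological replicates and do not say whether each was 1 mouse or a pool. The p-values therefore measure the spread between arrays, which may be partly technical.

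The 5 genes, the gene lists and the tests were chosen with earlier results of these data known. Genes were named by a rule: the 5 genes, S1pr2, S1pr3 and Mir142, up to 4 members of each list called over both organs by size, and the 3 genes most like each of the 5, leaving out predicted genes. Others are said to be named after their values were seen. Lists have counts and medians and no test. The alternatives tried were other filters, normalizations, treatments of the run, replicate numbers as a block, priors, each organ alone, each run alone and each array left out. The steps were tested on simulated data. Sequences are from RefSeq.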

Additional observations from a re-analysis of the deposited data

How the results depend on the processing

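Of 670 recomputed values of the 5 genes under 24 settings, 634 stayed on their side of the threshold. The sign turned in 20 values of 5 results, none of them called in either fit, among them 9 of Cd69 in spleen, and no called value turned its sign. S1pr1 and Cd44 kept their calls in each organ in every refit run. Calls that changed outside the array omissions were as follows. The spleen call of S1pr5 was lost without the run (-0.44, adjusted p = 0.0613), with the run as a random block (-0.42, 0.0812) and with the replicate block without the run (-0.44, 0.0619), and its bone marrow call was gained under the same settings (-0.54, 0.0206; -0.58, 0.0122; -0.54, 0.0226). The bone marrow call of S1pr4 was lost with a second quantile normalization (-0.48, 0.0597) and with the replicate block beside the run (-0.60, 0.0509). The knockout organ difference of S1pr1 passed with a filter at the 60th percentile (-0.94, 0.0495), without the run (-1.10, 0.00926), with the run as a random block (-1.14, 0.00523), with the replicate block without the run (-1.10, 0.0107) and with a trend in the prior (-0.94, 0.0480). Within the first run alone Cd69 was at 0.27 in spleen and 0.26 between knockout organs, and Cd44 at -0.18 between wild type organs.

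With 1 array left out, the spleen difference ranged from -0.70 to -0.56 for S1pr4 and -0.55 to -0.47 for S1pr5, and in bone marrow from -0.68 to -0.51 and -0.52 to -0.27. Between wild type organs Cd69 ranged from 0.70 to 1.03, and between knockout organs S1pr1 from -1.03 to -0.80 and S1pr5 from -1.24 to -0.99. Of 35 calls of the named list genes in a single organ, 17 held without any 1 array. Both counts include S1pr3 in spleen and in bone marrow, which passed the filter through its knockout arrays and is described above without a call.

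The number of genes called in bone marrow was 1035, and it was 1590 without the run, 1830 with it as a random block and 1662 with the replicate block in its place. The interaction gave 1 gene, and 0, 2, 12, 5, 11 and 5 genes with the 60th percentile filter, no run, a random block, the replicate block with and without the run, and the trend. The knockout organ count of 38 became 87 without the run, 119 with the random block and 128 with the replicate block alone. With 1 array left out, the genes called ranged from 546 to 1083 in spleen (lowest without wild type spleen 3), 371 to 1006 in bone marrow (lowest without wild type bone marrow 1), 1675 to 2178 over both, 0 to 5 for the interaction, 82 to 702 between wild type organs (lowest without wild type bone marrow 1) and 1 to 38 between knockout organs (lowest without knockout spleen 3). Relative scaling moved the split of calls: 45.3% of bone marrow calls were higher, 57.4% after a second quantile normalization and 30.8% after median centring, and between wild type organs 80.7%, 64.7% and 90.7%. S1pr3 was not tested with the 60th percentile filter.

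The replicate numbers were not taken as pairs. Of 18 pairs of arrays with the same number in different groups, 5 correlated above 0.1 in their deviations (-0.034 to 0.186), although 10 of 12 arrays were closest to their own number, a hint from the data and not the design. The pairs that join spleen and bone marrow of the same genotype were all positive, at 0.0255 to 0.186. The replicate block changed no other call of the 5 genes. Another probe set could not be tried, since each of the 5 genes has 1. The causes of these changes were not tested. Differences near 0.5 are at the limit of what 3 arrays a group can call.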
